A study of Mus musculus and Rattus norvegicus with 11 samples.

Results

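The cells described here are the 3916 rat sciatic nerve cells that the authors' deposited annotation names nmSC. They were taken by that name alone, 2042 from rat library 1 and 1874 from rat library 2, out of 12360 annotated rat cells and 28032 annotated cells of both species. The study profiled peripheral nerve of mouse and rat by droplet sequencing of the 3' ends of messenger RNA, with unique molecular identifiers (UMIs) that count each captured molecule once. The rat group is naive Lewis rat, an inbred laboratory strain, with 2 libraries; the labels state neither treatment nor age nor sex. Per the labels' protocols, rat sciatic nerves were digested with collagenase, dispase and DNase, the mononuclear layer of a Percoll density gradient was collected, and the cells were not sorted. The 3 C57BL/6 mouse libraries, whose labels give only the strain, serve as a side comparison at the end, and the NOD libraries were not used. Nothing in the labels says that the 2 rat libraries came from separate animals, so the spread between them may be technical.

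Peripheral nerve is built in layers: an outer epineurium of fibroblasts and thick collagen, a perineurium of sheath cells that form a barrier around each fascicle, and an endoneurium in which axons, Schwann cells, capillaries and fibroblasts share a thin matrix. Non-myelinating Schwann cells, from which an abbreviation such as nmSC is usually drawn, are glia of neural crest origin that enfold small axons and depend on the transcription factor Sox10. Endoneurial fibroblasts are matrix-producing cells that lie between the axons, lack Sox10, and in rodents are known for apolipoprotein D, the potassium channel gene Kcnk2 and the transcription factor gene Sox9.

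In both libraries the cells named nmSC carried fibroblast genes and the genes Apod, Kcnk2 and Sox9, and almost no Schwann cell transcripts. The counts of each cell type were summed per library and divided by the library's total for that type to give counts per 1000000 UMIs (CPM). Values below are for library 1 and then library 2. A list of fibroblast genes, 8 of whose 10 members were matched, summed to 47904 and 42497 CPM in nmSC, beside 50485 and 47672 CPM in the cells named fibro. The same list gave between 2772 and 6686 CPM in the vascular, myeloid and lymphoid types. A list of endoneurial fibroblast genes had 14 members. Wif1, Trpm6 and Cdh19 had too few UMIs in nmSC and fibro to be tested. Of the 11 tested members, 7 were called higher than in fibro, past 2-fold in both libraries as set out below. These were Apod, Col15a1, Abca8a, Osr2, Etv1, Sox9 and Kcnk2. Lpl was called lower, and Ccl11, Spp1 and Meox1 were not called. Of all genes tested, 3.58% were called higher and 3.11% lower. Kcnk2 and Sox9 together gave 241 and 257 CPM in nmSC, and their levels did not overlap those of any other type, the highest of which was 12.6 CPM for Kcnk2 and 12.2 CPM for Sox9.

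Defining Schwann cell genes were at or near 0. Sox10 had 0 UMIs in library 1, which allows a share of up to 0.147% of cells with a UMI at 3 counts, and 4 UMIs in 1 cell of library 2. A general Schwann list gave 127 and 111 CPM in nmSC and 132 and 136 CPM in fibro, made up mostly of S100b and Gas7, neither of which was called different between the types. The myelinating list, at 726 and 689 CPM, was mostly Pmp22, a membrane protein gene of compact myelin that many other cells express and that stood at 712 and 681 CPM in fibro. The list for non-myelinating Schwann cells gave 29.3 and 27.7 CPM, above the 11.7 and 8.35 CPM of fibro and below the 59.8 and 42.7 CPM of T cells. Its 3 tested members, Ngfr, Chl1 and Gfra3, were not called different from fibro. The data therefore go against the Schwann cell name for these cells, which are called nmSC below only as the authors' label. The plot of marker lists by type shows the same values.

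**Figure D1:**
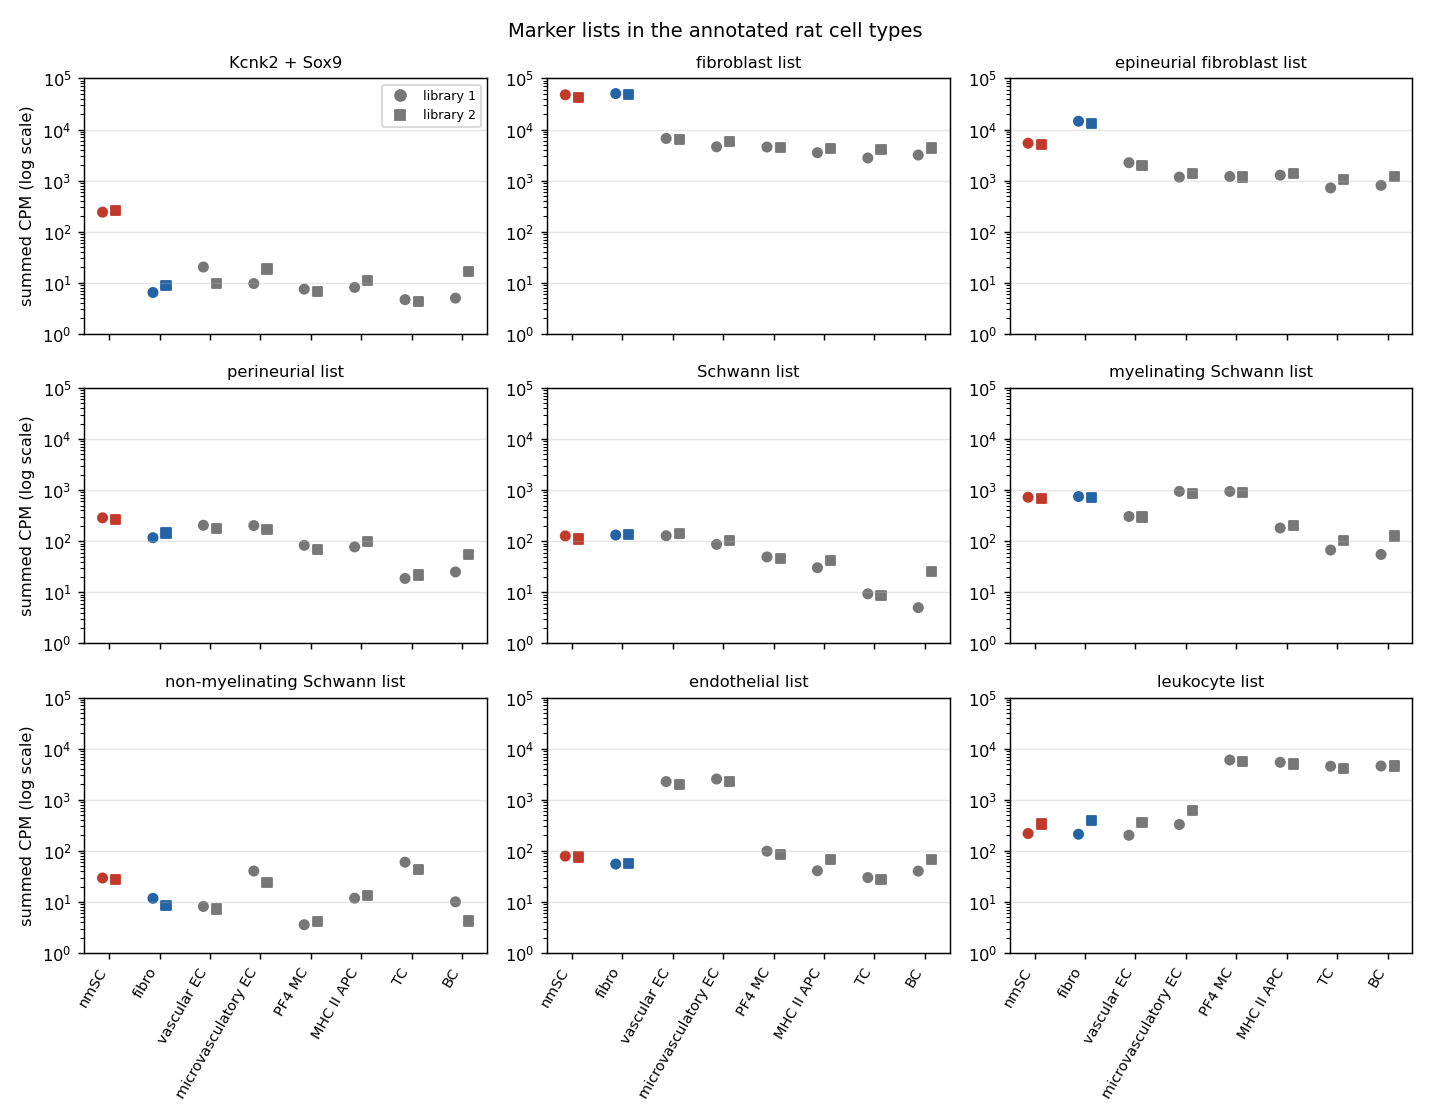
Summed CPM (log scale) of 9 marker lists in each annotated rat cell type, library 1 as circles and library 2 as squares, with nmSC in red and fibro in blue. Kcnk2 with Sox9 sits at 241 and 257 CPM in nmSC and at no more than 20.3 CPM in the other compared types, the fibroblast list is at about the same height in nmSC and fibro, and the Schwann list is no higher in nmSC than in fibro.

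Markers of vessel and blood cells were low in nmSC. The endothelial list gave 78.7 and 75.3 CPM against at least 2005 CPM in both endothelial types, and the mural list 17.5 and 18.5 CPM against 121 and 116 CPM in fibro. Perineurial genes summed to 287 and 266 CPM, above the 117 and 145 CPM of fibro. Of the 7 perineurial genes tested, 3 were called higher than in fibro: Cldn1, a tight junction claudin, Slc2a1, a glucose transporter of barrier cells, and Ntn4, a netrin. Mpzl2 was called lower and the other 3 were not called, where 3.58% of all genes were called higher and 3.11% lower. The call of Slc2a1 was lost with TMM scaling factors. Leukocyte genes gave 218 and 335 CPM and macrophage genes 770 and 1018 CPM, with 211 and 385 CPM and 778 and 1153 CPM in fibro. Both sums were higher in library 2 in both types, and UMIs of at least 2 leukocyte markers were found in 8.28% and 16.1% of nmSC cells.

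A set of 5 cells, 3 in library 1 and 2 in library 2, does not share this profile. They were found after the values had been seen, as nmSC cells with UMIs of at least 3 myelinating markers other than Pmp22. These 5 cells held 43 of the 54 UMIs of the myelin gene Mbp. Mbp is on the list used to pick them, so this share follows from the rule. All 4 UMIs of Sox10 lay in 1 of the 5 cells. The 5 cells had 0 UMIs of Dcn, Kcnk2 and Sox9. Their Apod was 1575 CPM, as in other cell types, against 42276 CPM in the other nmSC cells. Their median depth was 1401 UMIs, and 0 of them were called doublets.

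The share of nmSC was alike in both libraries, and so was their depth. They made up 31.8% of annotated cells in library 1 (Clopper-Pearson 95% interval 30.6% to 32.9%) and 31.6% in library 2 (30.4% to 32.8%). These intervals cover counting error only. Summed nmSC counts were 5489047 and 5021833 UMIs, with a median of 2577.5 and 2582 UMIs and of 1023 and 1010 genes per cell, while fibro cells were deeper at 3533 and 3643 UMIs. Mitochondrial genes took 3.30% and 3.24% of nmSC UMIs. The libraries shared 59 of their barcodes, 8 of them named nmSC in both. Of 10633 nmSC genes, 587 differed between libraries in a binomial test of summed UMIs at a Benjamini-Hochberg cut of 0.05. Of these, 13 passed 2-fold, such as the ribosomal protein gene Rpl39 at 387 and 869 CPM. The test takes each UMI as independent and leaves out variation between cells. It therefore cannot tell separate animals from a shared cell suspension.

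The comparison with fibro asks what sets these cells apart from the other fibroblast population of the same nerves. A gene was called when the ratio of CPM + 5 between the types passed 2-fold the same way in both libraries, among genes with at least 10 UMIs over both types in each library. No test of nmSC against fibro was made, because named types of this kind are taken to rest on these same genes, although the labels do not say how the types were cut. Every difference below is a description. Of 10625 genes, 380 (3.58%) were called higher and 330 (3.11%) lower in nmSC, and the median log2 ratio of all genes was 0.07. Each list count below is to be set beside these shares. With 1 CPM in place of 5 CPM added, 641 genes were called higher and 556 lower. With TMM scaling factors the order of the counts turned, to 330 higher and 397 lower. With barcodes of at least 2 leukocyte or endothelial markers left out, 385 were called higher and 342 lower. Against the highest of 7 other types, 147 of 11659 genes (1.26%) were called higher in nmSC. Fibro is among these types, so each of these genes is also higher than in fibro by construction.

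**Figure D2:**
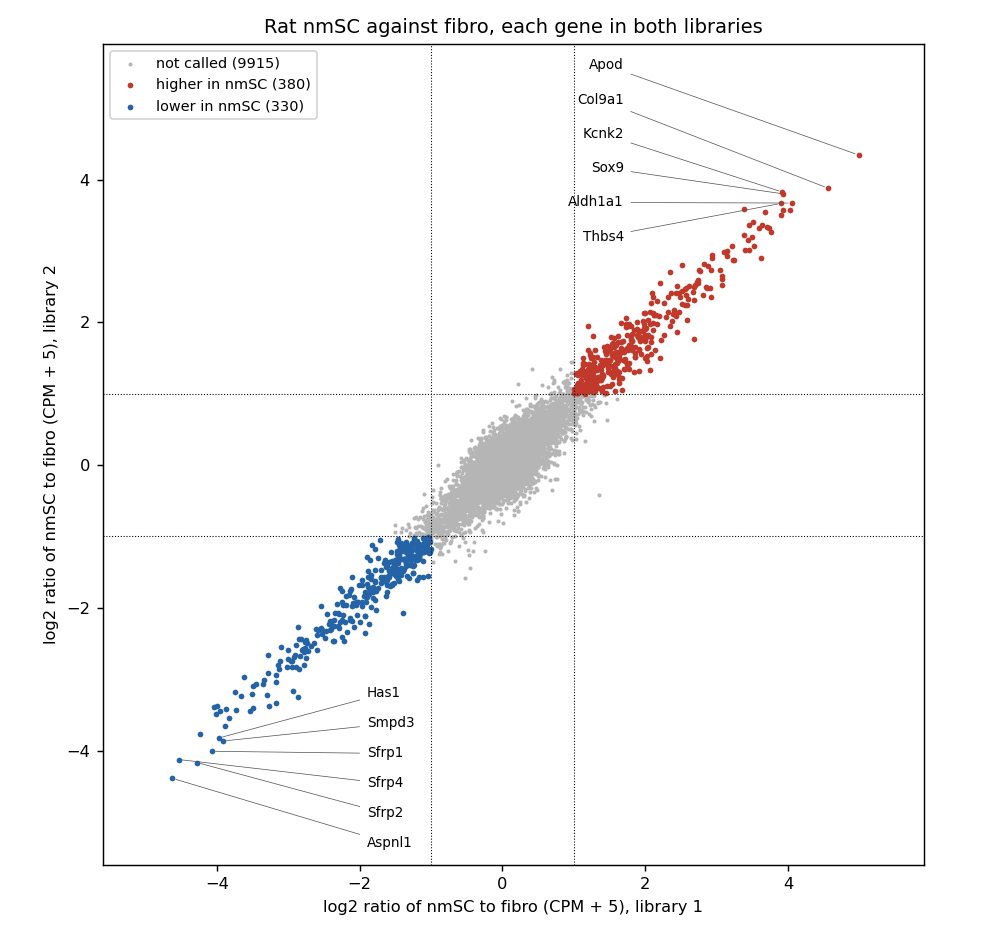
The log2 ratio of nmSC to fibro of each of 10625 genes in library 1 (horizontal) and library 2 (vertical), on CPM + 5. The 380 genes called higher (red) and the 330 called lower (blue) lie along the diagonal beyond the dotted 2-fold lines, with Apod at the top right and Aspnl1 at the bottom left.

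Apod, which encodes a secreted lipid-binding protein, stood furthest from fibro. Apod (ENSRNOG00000048273) was at 44703 and 39567 CPM in nmSC and at 1402 and 1943 CPM in fibro, a 31.9-fold and 20.4-fold ratio. T cells, which should not make it, had 1380 and 1895 CPM, and no other compared type was above 2820 CPM. The level in fibro was thus close to that in T cells. Single fibro cells held up to 135 and 282 Apod UMIs, and single T cells up to 30 and 118. Whether the level in fibro is free RNA was not tested.

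Kcnk2 (ENSRNOG00000002653), a background potassium channel gene, was at 115 and 131 CPM in nmSC and 2.93 and 4.57 CPM in fibro. At least 1 UMI of Kcnk2 was seen in 24.8% and 27.5% of nmSC cells, in 1.10% and 1.4997% of fibro cells and in 0.201% and 0.629% of T cells, whose median depth was 1931 and 2180 UMIs. Sox9 (ENSRNOG00000002607) was at 126 and 126 CPM against 3.52 and 4.41 CPM, with a UMI in 24.6% and 24.97% of nmSC cells. With every cell thinned to 1000 UMIs, the nmSC shares were 11.3% and 11.6% for Kcnk2 and 10.4% and 10.6% for Sox9, and the fibro shares stayed below 0.5%. Both genes were thus more frequent in nmSC at equal depth.

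Col9a1, a chain of type IX collagen best known from cartilage, was at 355 and 268 CPM in nmSC and 10.3 and 13.6 CPM in fibro. Only 19.9% and 15.6% of nmSC cells had a Col9a1 UMI, and single cells held up to 38 and 26 of them. Aldh1a1, which makes retinoic acid from retinaldehyde, was at 401 and 366 CPM against 19.5 and 24.1 CPM, a 20.6-fold and 15.2-fold ratio. Rdh10, the enzyme of the preceding step, was at 152 and 165 CPM against 12.8 and 17.2 CPM; it was chosen after its values were seen. Both enzymes were also highest in nmSC of all compared types.

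The 12 genes furthest above fibro also included Myoc, Thbs4 and Vwa1. Myoc, which encodes the extracellular glycoprotein myocilin, was at 4694 and 4254 CPM in nmSC and at 284 and 352 CPM in fibro. Thbs4, a thrombospondin of tendon and nerve matrix, was at 996 and 897 CPM against 61.7 and 66.0 CPM. Vwa1, a matrix protein gene with a von Willebrand factor domain, was at 281 and 255 CPM against 13.8 and 16.9 CPM. All of these were at least 9.54-fold above the next highest type in each library.

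The glypican gene Gpc4 was at 272 and 258 CPM against 16.6 and 17.5 CPM, a 16.4-fold and 14.8-fold ratio. Tenm2, which encodes a teneurin adhesion protein of neurons and other cells, was at 103 and 98.2 CPM against 3.96 and 5.36 CPM. The metalloreductase gene Steap4 was at 330 and 279 CPM in nmSC, and its next type was the myeloid cells named PF4 MC, at 25.7 and 27.6 CPM. Serpine2, a protease inhibitor that acts on thrombin and plasminogen activators, was at 375 and 310 CPM against 31.4 and 21.1 CPM in fibro, but vascular EC held 167 and 148 CPM. Fxyd6, a modulator of the sodium pump, was 26.6-fold and 17.7-fold above fibro, and Arxes2 17.6-fold and 16.2-fold.

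Ramp1, Calcrl and Ramp3, receptor components for calcitonin family peptides, were picked out because they were higher in nmSC, so they say nothing of the family as a whole. Ramp1, the partner that makes the receptor for calcitonin gene-related peptide, a product of sensory axons, was at 1404 and 1295 CPM against 99.3 and 130 CPM in fibro. Calcrl, which encodes the receptor itself, was at 77.4 and 81.4 CPM against 9.39 and 7.41 CPM, with microvasculatory EC higher at 132 and 87.6 CPM. Ramp3 was at 319 and 266 CPM against 21.4 and 31.4 CPM, and MHC II APC cells were close at 308 and 245 CPM.

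Among 49 transcription factor genes tested, 11 were called higher in nmSC and 4 lower, where 3.58% and 3.11% of all genes were. They include 4 Sox genes, 3 ETS genes and 2 forkhead genes. Beside Sox9, Sox8 was at 41.5 and 32.5 CPM, Sox5 at 21.1 and 19.7 CPM and Sox6 at 6.74 and 7.57 CPM, while Sox6 had 0 and 0.315 CPM in fibro. Sox5, Sox6 and Sox9 are known together as regulators of cartilage genes.

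The ETS factor genes of the Pea3 group, known as targets of receptor tyrosine kinase signalling, were all called higher. Etv1 was at 137 and 136 CPM against 5.87 and 8.98 CPM in fibro, Etv5 at 75.8 and 65.1 CPM against 6.89 and 5.67 CPM, and Etv4 at 35.9 and 36.0 CPM against 2.49 and 2.21 CPM. The forkhead genes Foxs1 and Foxc2 were at 191 and 169 CPM against 9.68 and 12.5 CPM, and at 49.9 and 59.1 CPM against 9.53 and 12.6 CPM. The T-box gene Tbx18 was at 57.2 and 59.1 CPM against 9.39 and 12.3 CPM. Apart from Foxc2, these genes were at least 3.33-fold above every other compared type.

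The odd-skipped pair, regulators of mesenchyme development, split between the types. Osr2 was at 385 and 354 CPM in nmSC and 45.8 and 41.5 CPM in fibro, while Osr1 was at 7.65 and 6.97 CPM and 34.3 and 32.3 CPM. Prrx1, a mesenchymal homeobox gene, was lower in nmSC at 7.11 and 11.2 CPM against 37.8 and 29.9 CPM, as were Klf4 and Tcf7l2. The 10 Hox genes tested were all uncalled, with a median log2 ratio of -0.07.

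Of 17 collagen genes tested, 7 were called higher and 2 lower, with a median log2 ratio of 0.38. The fibrillar collagens that both types make, Col1a1 at 12119 and 11192 CPM and Col3a1 at 13189 and 12270 CPM in nmSC, were 1.54-fold and 1.63-fold and 1.15-fold and 1.21-fold higher in fibro and were not called. Col15a1 and Col18a1, the multiplexin collagens that sit at basement membranes, were at 1193 and 1124 CPM against 176 and 186 CPM, and at 165 and 161 CPM against 23.6 and 24.7 CPM. Col11a1, which nucleates thin fibrils, was at 170 and 156 CPM against 10.998 and 10.7 CPM. At the other end, Col14a1, a collagen that coats mature fibrils, was at 2.37 and 4.58 CPM in nmSC and 78.3 and 76.8 CPM in fibro. Col12a1 of the same class was also lower, a call lost with thinned cells.

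Of 15 basement membrane genes tested, 5 were called higher in nmSC and 0 lower, and their median log2 ratio was 0.71. Nid1, which links laminin to collagen IV, was at 960 and 985 CPM against 160 and 175 CPM, and Nid2 at 50.8 and 49.6 CPM against 9.53 and 10.9 CPM. The laminin chain gene Lama2, mutated in a muscular dystrophy with neuropathy, was at 270 and 254 CPM against 76.8 and 78.2 CPM. Lama4, the laminin chain of vessels and nerve, was at 82.2 and 83.2 CPM against 34.6 and 36.7 CPM, and its call was lost with TMM scaling factors, at a log2 ratio of 0.98. Smoc2, a calcium-binding matrix protein gene, was at 376 and 322 CPM against 123 and 108 CPM. The shared laminin chain genes Lamb1, Lamb2 and Lamc1 lay between 1.29-fold and 1.80-fold higher in nmSC and were not called.

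Proteoglycan genes went both ways, with 2 of 16 called higher and 5 lower. Gpc3, a glypican that binds growth factors at the cell surface, was at 2605 and 2334 CPM against 362 and 326 CPM, and Cspg4, the NG2 proteoglycan gene, at 43.9 and 40.2 CPM against 3.81 and 3.47 CPM. Decorin (Dcn) and lumican (Lum), which regulate collagen fibril width, were 1.69-fold and 1.63-fold and 1.62-fold and 1.59-fold higher in nmSC and were not called. Lower were biglycan (Bgn), at 289 and 305 CPM against 952 and 916 CPM, and fibromodulin (Fmod), at 5.10 and 7.77 CPM against 156 and 127 CPM. The others called lower were Ecm2, Prg4 and Ogn, the last not called with each cell weighted equally.

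Elastic fibre genes were called lower in 7 of 19 cases and higher in 3. Elastin itself (Eln) was at 40.1 and 43.8 CPM in nmSC and 517 and 526 CPM in fibro, and Loxl1, the enzyme that crosslinks it, at 18.0 and 24.1 CPM against 221 and 213 CPM. The fibulins Fbln1 and Fbln5 were 10.9-fold and 9.70-fold and 2.67-fold and 2.35-fold lower. Fibrillin 1 (Fbn1), the microfibril backbone, did not differ by 2-fold, at 859 and 796 CPM against 746 and 678 CPM. Those higher in nmSC were Efemp1, Fbn2 and Emilin1, the last not called with TMM factors or with each cell weighted equally.

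Matricellular genes, whose products modulate adhesion more than they build fibres, were called lower in 8 of 19 cases and higher in 2, Thbs4 and Wisp1. Periostin (Postn) was at 12.4 and 13.5 CPM against 192 and 191 CPM, and the thrombospondins Thbs2 and Thbs3 were 4.33-fold and 4.45-fold and 2.48-fold and 2.49-fold lower, opposite to Thbs4. Among 25 genes for proteases and their inhibitors, 2 were called higher, Serpine2 among them, and 7 lower. The antiangiogenic serpin Serpinf1 was lower at 894 and 881 CPM against 3222 and 2951 CPM.

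**Figure D3:**
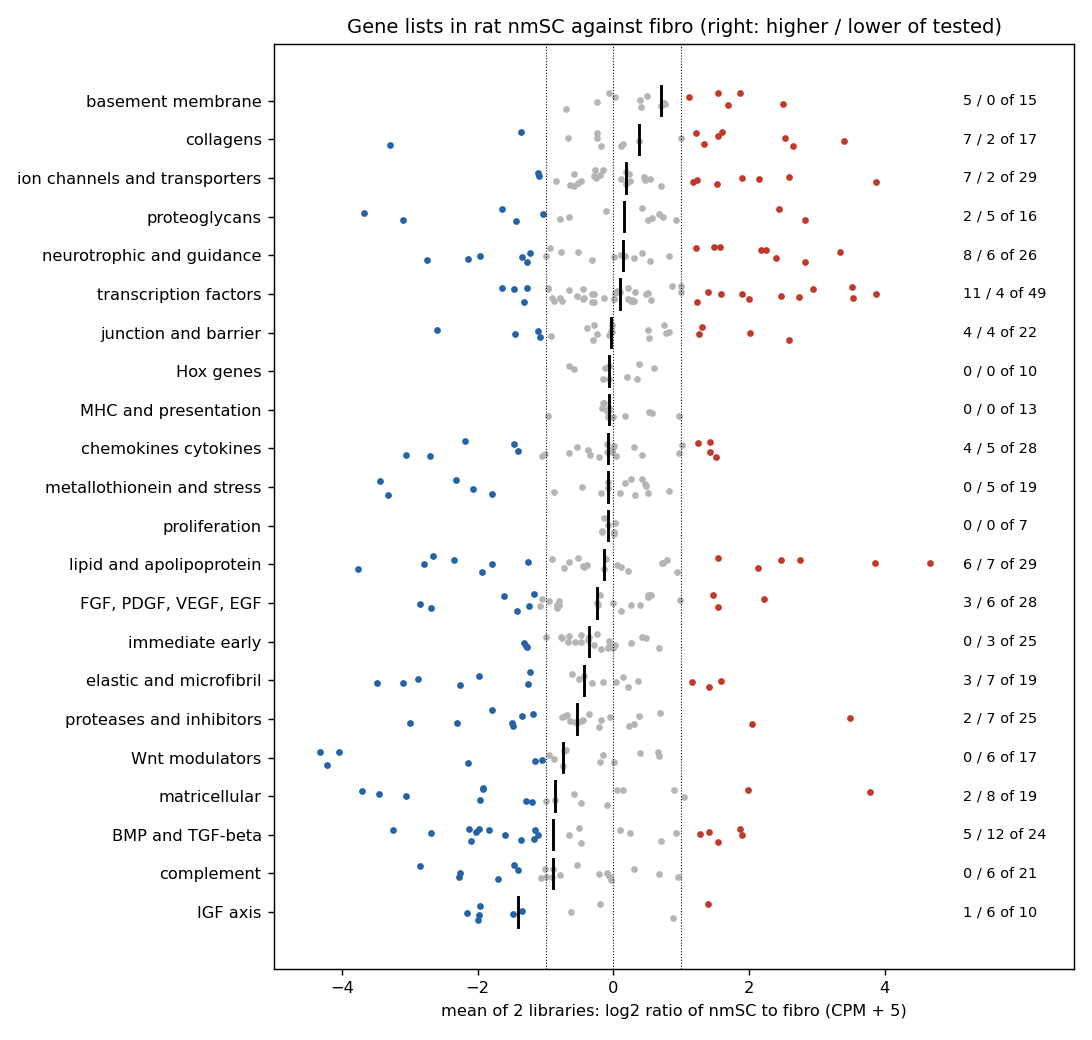
The mean log2 ratio of nmSC to fibro over 2 libraries for each tested gene of 22 lists, red where called higher, blue where called lower and grey where not called, with a black bar at each list's median. Basement membrane genes have the highest median, 0.71 with 5 of 15 called higher, and the insulin-like growth factor (IGF) axis the lowest, with 6 of 10 called lower.

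Of 17 Wnt modulator genes tested, 6 were called lower in nmSC and 0 higher. The secreted frizzled-related proteins, which bind Wnt ligands outside the cell, gave 3 of the 12 genes furthest below fibro. Sfrp4 was at 113 and 133 CPM in nmSC and 2734 and 2411 CPM in fibro. Sfrp2 was at 7.47 and 7.17 CPM against 237 and 214 CPM, and Sfrp1 at 5.65 and 11.9 CPM against 174 and 268 CPM. T cells had 104 and 133 CPM of Sfrp4 and 7.48 and 12.2 CPM of Sfrp2, so the levels in nmSC were close to those of T cells. Dkk2, a Wnt coreceptor antagonist, was 12.9-fold and 12.2-fold lower.

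The 12 genes furthest below fibro were led by Aspnl1, at 9.11 and 10.6 CPM in nmSC against 343 and 321 CPM in fibro. Smpd3, a neutral sphingomyelinase, was at 17.1 and 15.1 CPM against 329 and 289 CPM, and Has1, a hyaluronan synthase, at 82.9 and 81.0 CPM against 1372 and 1212 CPM. Ptgs2, the inducible cyclooxygenase, was at 23.3 and 23.3 CPM against 412 and 351 CPM, and the secreted phospholipase gene Pla2g2a at 33.7 and 42.6 CPM against 599 and 511 CPM. Ccdc80, Fndc1, Cadm3 and Eln were between 12.01-fold and 20.2-fold lower. Ccdc80 in nmSC, at 66.5 and 87.0 CPM, was again at the level of T cells, 54.2 and 112 CPM.

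Genes of the epineurial fibroblast list followed the same direction, with 10 of 15 called lower and 1 higher. The peptidase inhibitor gene Pi16, a marker of a widespread fibroblast progenitor state, was at 174 and 165 CPM in nmSC and 1001 and 911 CPM in fibro. Dermatopontin (Dpt) was at 281 and 296 CPM against 1903 and 1698 CPM, and Mfap5, a microfibril protein gene, at 577 and 577 CPM against 2985 and 2614 CPM. The exception was Dpp4, a surface dipeptidase, at 102 and 86.2 CPM against 47.7 and 40.03 CPM, a ratio near the 2-fold limit that was not called under 4 of the alternatives tried. Dpp4 and Pi16 mark the same progenitor fibroblasts in other tissues, and here they stood on opposite sides.

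Of 24 genes of the BMP and TGF-beta pathways, 12 were called lower and 5 higher, a median log2 ratio of -0.88. Bmp4 was at 18.4 and 21.5 CPM against 157 and 153 CPM in fibro, and Gdf10, another ligand of the family, at 3.83 and 1.39 CPM against 74.5 and 59.3 CPM. Bmp7 was the ligand called higher, at 56.8 and 54.0 CPM against 12.2 and 10.9 CPM. Bmp2, at 161 and 165 CPM, was 1.61-fold and 1.695-fold higher and was not called.

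The BMP and activin antagonist genes Grem1, Fst and Chrdl1 were called lower, with at most 1.39 CPM in nmSC and at most 19.2 CPM in fibro; they were named after their values were seen. Id1 and Id3, immediate transcriptional targets of BMP signalling, were higher, at 371 and 335 CPM against 94.1 and 87.2 CPM and at 3417 and 2980 CPM against 1328 and 1301 CPM. Id2 went the other way, at 25.7 and 25.5 CPM against 61.4 and 61.0 CPM, a call lost with thinned cells. Of the same list, Smad7 was also called lower and Nog was not called. Bambi, a membrane decoy for the receptors and itself a BMP target, was at 165 and 178 CPM against 62.9 and 59.4 CPM.

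The IGF axis had 6 of 10 genes called lower and 1 higher. Igfbp6, which preferentially binds Igf2, was at 5354 and 5719 CPM in nmSC against 22169 and 21532 CPM in fibro, with 1608 and 2442 CPM in T cells. Igfbp5 was at 867 and 937 CPM against 3831 and 4234 CPM, and Igfbp3, Igfbp4 and Igfbp7 were also lower. Igf2 was called higher at only 16.2 and 25.3 CPM against 4.11 and 5.20 CPM, and Igf1, at 168 and 153 CPM against 262 and 241 CPM, was not called.

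Among 28 other growth factor genes tested, Fgfr2, Nrp2 and Pdgfd were called higher and 6 lower. Fgfr2, a receptor for fibroblast growth factors, was at 47.7 and 41.4 CPM against 3.23 and 8.67 CPM. Nrp1 and Nrp2, the neuropilins that serve as coreceptors for semaphorins and VEGF, split: Nrp2 was at 69.0 and 63.1 CPM against 18.9 and 22.7 CPM, and Nrp1 at 3.46 and 3.98 CPM against 21.0 and 22.5 CPM. Pdgfra, the receptor common to fibroblasts, was 1.58-fold and 1.35-fold higher and was not called.

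Of 26 genes for neurotrophic and guidance factors, 8 were called higher and 6 lower. The heparin-binding growth factors midkine (Mdk) and pleiotrophin (Ptn), both of which promote neurite growth, were at 723 and 658 CPM against 91.4 and 95.2 CPM and at 147 and 139 CPM against 8.51 and 10.7 CPM. For Ptn, microvasculatory EC held more, at 808 and 736 CPM.

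Of 3 tested GFRA coreceptors, which present GDNF family ligands to neurons and Schwann cells, Gfra1 and Gfra2 were called higher in nmSC and Gfra3 was not called. Gfra1 was at 110 and 105 CPM against 17.0 and 20.3 CPM, and Gfra2 at 67.0 and 62.1 CPM against 7.19 and 9.14 CPM. The cytokine gene Clcf1 was at 40.4 and 35.4 CPM against 12.3 and 14.7 CPM, a call lost with TMM factors and with thinned cells. Lower were Gas6, the ligand of TAM receptors, at 73.6 and 75.3 CPM against 556 and 505 CPM, and the semaphorin gene Sema3c, at 65.4 and 63.1 CPM against 280 and 253 CPM. Slit3, Sema3d, Ephb2 and Ntrk3 completed those called lower.

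Chemokine and cytokine genes, 28 tested, were called higher in 4 cases and lower in 5. Il33, a nuclear alarmin of stromal cells, was at 1193 and 988 CPM against 424 and 380 CPM, and was above microvasculatory EC at 529 and 444 CPM. Il34, a ligand of the macrophage growth factor receptor, was at 93.3 and 92.6 CPM against 37.8 and 34.4 CPM. Ccl7 and Cxcl3, chemokines for monocytes and neutrophils, were at 2826 and 2454 CPM against 941 and 1013 CPM and at 731 and 687 CPM against 268 and 224 CPM, with more in PF4 MC, at 10548 and 9065 CPM and 2551 and 2457 CPM. The monocyte chemokine gene Ccl2 was not called, at 7386 and 6282 CPM against 9124 and 8154 CPM. Il6 and Cxcl14 were lower, at 51.7 and 56.6 CPM against 384 and 374 CPM and at 20.04 and 9.76 CPM against 177 and 136 CPM.

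Of 21 complement and related genes tested, the symbol C4a standing on 2 of them, 6 were called lower and 0 higher. Cd55, which dismantles complement convertases, was at 2.55 and 2.79 CPM against 36.5 and 28.2 CPM. C1r, C1s and Serping1, the first proteases and their inhibitor, were within 1.26-fold of fibro. The 13 genes of antigen presentation were not called in either direction, and members of the RT1 family share sequence, so their counts are uncertain.

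Lipid genes were called higher in 6 of 29 cases and lower in 7. Beside Apod and Aldh1a1, Apoe was at 2515 and 2408 CPM against 749 and 937 CPM, with PF4 MC at 10451 and 9536 CPM. Abca8a, a lipid transporter, was at 1044 and 1010 CPM against 179 and 182 CPM, and Enpp2, the enzyme autotaxin that makes lysophosphatidic acid, at 58.7 and 45.004 CPM against 4.40 and 2.52 CPM. Lower were lipoprotein lipase (Lpl), at 16.9 and 18.1 CPM against 144 and 132 CPM, and the cholesterol exporter Abca1, at 4.01 and 3.58 CPM against 37.1 and 42.4 CPM.

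Of 29 channel and transporter genes, 7 were called higher and 2 lower. The glutamate transporter gene Slc1a3 was at 50.8 and 42.6 CPM against 12.2 and 13.7 CPM. Among 22 junction and barrier genes, 4 were called higher and 4 lower. Cldn1 was at 101 and 90.6 CPM against 20.4 and 19.2 CPM, with a UMI in 22.04% and 20.01% of nmSC cells and 7.02% and 5.88% of fibro cells, and Lgi4, a secreted protein needed for peripheral myelination and described mainly in glia, at 47.0 and 45.6 CPM against 3.08 and 3.94 CPM. The gap junction gene Gja1 and the adhesion gene Vcam1 were lower. The call of Gja1 was lost with equal cell weights, with thinned cells and without barcodes of leukocyte or endothelial markers.

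Metallothionein and stress genes were called lower in 5 of 19 cases and higher in 0. Mt2A was at 455 and 725 CPM against 5810 and 6844 CPM, and T cells had 248 and 447 CPM. Mt1 was at 271 and 389 CPM against 2656 and 4096 CPM, below the 505 and 750 CPM of T cells. Metallothionein genes resemble each other closely, which leaves their separate counts uncertain. Gpx3, the secreted glutathione peroxidase, was at 1004 and 1023 CPM against 5410 and 4785 CPM. Immediate early genes, known to be induced by tissue dissociation, were called lower in 3 of 25 cases (Klf4, Zfp36 and Ier3), and Fos, at 2262 and 1904 CPM against 2874 and 2540 CPM, was not called. The 7 proliferation genes tested were not called.

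The distance of nmSC from the other types was larger than from fibro by the same count. Against vascular EC, 634 genes (6.73%) were called higher and 701 (7.45%) lower. Against microvasculatory EC, 902 (9.58%) were higher and 727 (7.72%) lower, and against PF4 MC 1348 (13.5%) and 806 (8.08%). MHC II APC, BC and TC cells gave 1530 (15.9%), 1750 (18.9%) and 1943 (20.2%) genes higher in nmSC, and 707 (7.34%), 743 (8.03%) and 735 (7.66%) lower. These counts also depend on the number of cells, which ran from 253 B cells to 3490 fibro cells.

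Variation among the nmSC cells themselves was read from thinned counts. After thinning to 1000 UMIs, the Fano factor (variance over mean) of 3906 genes had a median of 1.02 in both libraries, and 52 genes reached 2 in both. For genes of few UMIs this factor stays near 1 whatever the cells do, so the median says little about them. Apod had the largest, 20.5 and 16.9, with a median of 39 and 34 UMIs per cell and a range from the 5th to the 95th percentile of 8 to 99 and 8 to 86. The median was 1 or 2 in every other compared type, and the 5th percentile of nmSC lay above the 95th of each, at most 6. Nearly all nmSC cells thus held more Apod than nearly all other cells.

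The other genes of high variance were chemokines (Ccl2 at 16.8 and 13.9, Cxcl1 at 13.2 and 11.2), the immediate early gene Fos at 17.9 and 12.1, the actin-severing protein gene Gsn at 9.27 and 7.71, and Col3a1 at 5.42 and 5.28. Ccl2 had a 5th percentile of 0 and a 95th of 32 UMIs in library 1. Hspa1b, at 6.93 and 6.801, has a near-identical copy, so its level is uncertain. As a description over the cells of 1 library at a time, which share their depth and their free RNA, Fos and Jun correlated with r = 0.63 in library 1 and 0.59 in library 2 (n = 2042 and 1874 cells), and Col1a1 with Col3a1 with r = 0.68 and 0.68. Ccl2 correlated with Cxcl1 with r = 0.45 and 0.43. Between chemokine and immediate early genes, the pairs ran from r = -0.30 and -0.27 for Jun with Ccl2 to 0.10 and 0.096 for Junb with Cxcl1.

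Levels of other genes followed the order of cells by Apod. Cells were ordered by Apod in a random part of their UMIs, cut into 4 groups of equal size, and the levels were read from the other UMIs. From the lowest to the highest Apod group, Ccl2 went from 11409 to 3258 CPM in library 1 and from 10269 to 3100 CPM in library 2. Gsn went from 25651 to 13982 CPM and from 22314 to 11900 CPM, and Igfbp5 from 1844 to 445 CPM and from 1881 to 572 CPM. Dcn went the other way, from 15480 to 22338 CPM and from 12862 to 18083 CPM. Of 4 other genes looked at that were called lower in nmSC than in fibro, Mfap5 went from 913 to 364 CPM and from 837 to 408 CPM, Igfbp6 from 7064 to 4654 CPM and from 7176 to 5191 CPM, and Mt2A from 639 to 344 CPM and from 965 to 524 CPM. Pi16, the fourth, and Sox9, Aldh1a1 and Etv1 had no steady order over the 4 groups in either library. Sox9 was still higher in the highest group than in the lowest in both. Of other genes called higher in nmSC than in fibro, Gpc3 rose steadily, from 2319 to 3093 CPM and from 1886 to 2517 CPM. Apoe went from 1538 to 2934 CPM and from 1665 to 3015 CPM. Osr2, Kcnk2 and Id3 also ended higher in both libraries, and Ccl7 and Myoc ended lower in both. The 24 genes looked at were chosen with the variances known, and a higher Apod count by itself lowers the CPM of every other gene. Median depth went from 2455 to 2657 UMIs and from 2380 to 2705.5 UMIs between the same groups, and its part in these values was not tested.

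**Figure D4:**
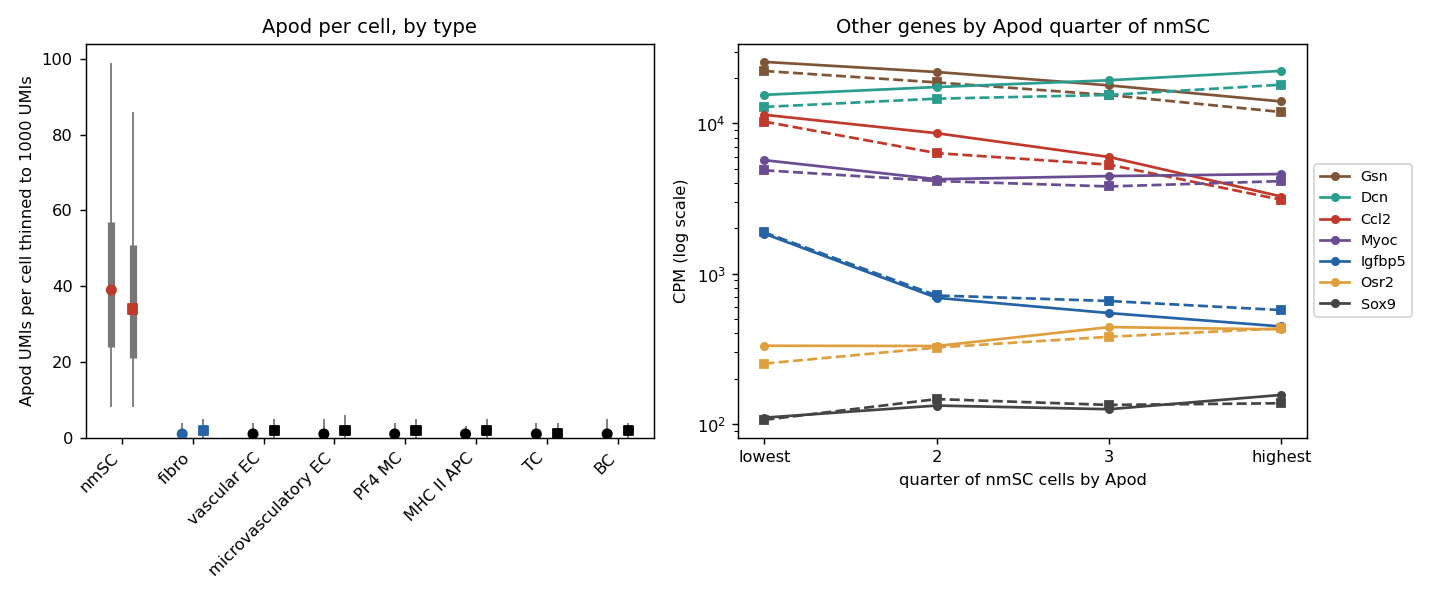
Left, Apod UMIs per cell after thinning to 1000 UMIs in each annotated type, with the median as a point (circle for library 1, square for library 2), a thick bar from the 25th to the 75th and a thin line from the 5th to the 95th percentile: nmSC medians are 39 and 34, all others 1 or 2. Right, CPM (log scale) of 7 genes across the 4 groups of nmSC cells ordered by Apod, solid for library 1 and dashed for library 2. Ccl2, Gsn, Igfbp5 and Myoc are lower, and Dcn, Osr2 and Sox9 higher, in the highest group than in the lowest.

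The C57BL/6 mouse libraries hold cells of the same 2 names, 197, 1156 and 77 nmSC and 350, 1123 and 78 fibro cells in libraries 1, 3 and 4. The mouse tissue was sciatic nerve with brachial plexus, digested with other enzymes, depleted of myelin and sorted by flow cytometry, so species and preparation cannot be told apart. Of 3183 mouse genes tested, 104 (3.27%) were called higher and 192 (6.03%) lower in nmSC, past 2-fold in all 3 libraries. Of the 380 genes higher in rat nmSC, 358 had a mouse gene of the same symbol and 105 had enough mouse UMIs to be tested. Of these 105, 50 (47.6%) were called higher in the mouse and 2 lower. Of 140 tested genes that were lower in rat nmSC, 76 (54.3%) were called lower in the mouse and 2 higher. Read from the mouse, 50 of 97 genes called higher there (51.5%) were higher in the rat, and 76 of 154 called lower (49.4%) were lower in the rat. Over all 2782 genes tested in both species, 3.49% were called higher and 5.54% lower in the mouse.

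The defining rat genes had the same direction in every C57BL/6 library. Apod was at 27295, 31704 and 29952 CPM in mouse nmSC and 538, 923 and 732 CPM in mouse fibro. Sox9 was at 317, 212 and 260.4 CPM against 2.79, 11.8 and 0 CPM, and Kcnk2 at 611, 212 and 272 CPM against 13.9, 5.14 and 0 CPM. Foxs1, Etv1, Osr2, Vwa1, Thbs4, Col15a1 and Gfra1 were likewise called higher, and Sfrp2, Sfrp4, Ccdc80, Pi16 and Gpx3 lower. The mean log2 ratio of the matrix gene Smoc2 was 4.94 in the mouse and 1.55 in the rat.

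Some of the leading rat genes were not called in the mouse. Aldh1a1 was at 52.8, 75.3 and 56.6 CPM in mouse nmSC against 36.2, 50.3 and 66.5 CPM in fibro, Steap4 had a mean log2 ratio of 0.01, and Fxyd6 of -0.73. Nid1, called higher in the rat, was at 340, 455 and 419 CPM against 432, 364 and 369 CPM. The 4 genes called in opposite directions were Ptn and Dpp4, higher in rat and lower in mouse nmSC, and Jam2 and Cpxm2, lower in rat and higher in mouse nmSC. Ptn was at 30.2, 27.0 and 0 CPM in mouse nmSC against 72.4, 73.1 and 72.6 CPM in fibro. Jam2, a junctional adhesion protein gene, was at 143, 120 and 102 CPM against 16.7, 19.1 and 12.1 CPM. In the rat its mean log2 ratio was -1.09, and the call was lost with thinned cells, at -0.84. The rat call of Dpp4 was likewise lost under several alternatives, TMM factors and thinned cells among them. Cpxm2, a carboxypeptidase family gene named after its values were seen, was at 279, 179 and 272 CPM against 11.1, 7.35 and 0 CPM.

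**Figure D5:**
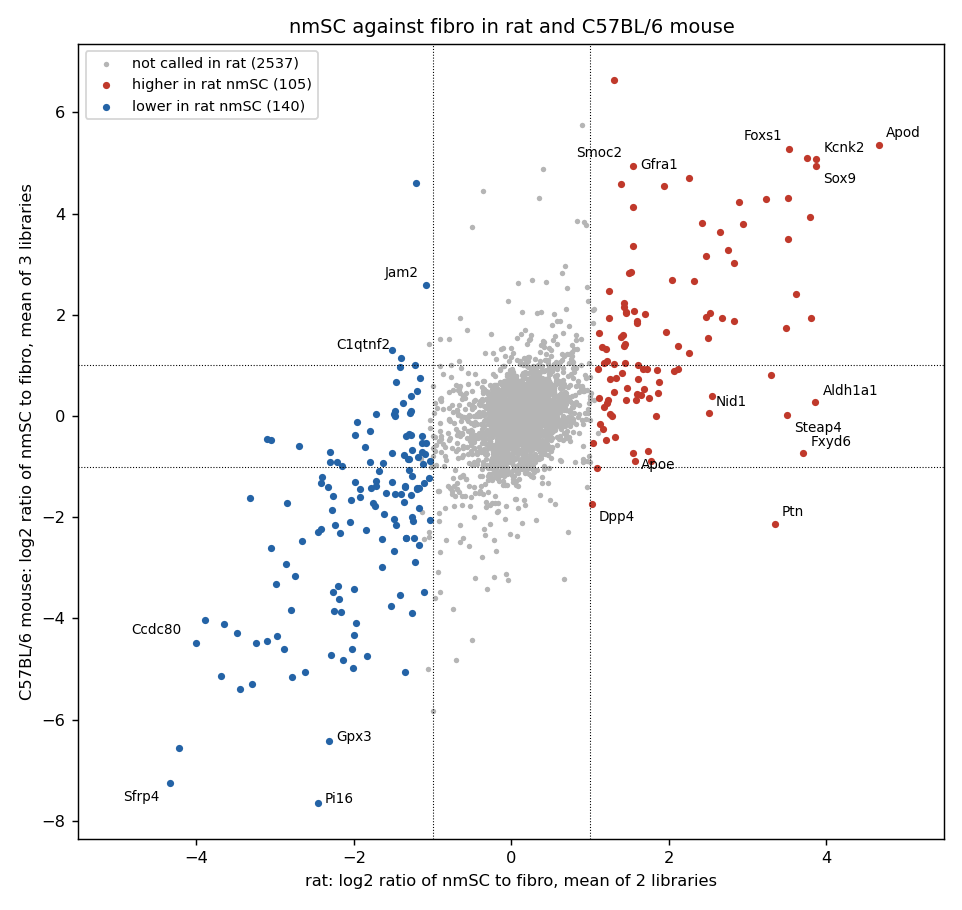
Mean log2 ratio of nmSC to fibro (CPM + 5) in rat (horizontal, 2 libraries) and C57BL/6 mouse (vertical, 3 libraries) for genes matched by symbol and tested in both, red or blue where called in the rat. Of the 105 red genes 50 were called higher in the mouse and of the 140 blue genes 76 were called lower, with Apod, Kcnk2, Sox9 and Foxs1 high in both and Ptn, Dpp4 and Jam2 on opposite sides.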

How the data were processed

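For each species the authors deposited 1 matrix of raw UMI counts and a table that gives barcodes a cell type name. Cell Ranger 3.0.2 and the builds Rnor_6.0 and mm10 come from the submitters' processing notes. Not given in the sources used here: the gene annotation's release, the way the authors clustered and named cells, and whether doublets or free RNA were removed. The members and the gene lists were chosen with earlier results of these data known.

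Counts of annotated rat cells were summed per type and library (numpy 2.4.6, pandas 2.3.3 and scipy 1.17.1 under Python 3.11.15) and scaled to CPM on the type's total. The rat table has 32883 genes, of which 421 symbols fall on several genes, kept apart by Ensembl identifier. Folds are ratios of CPM, and calls use CPM + 5. Mast cells, with 19 and 18 cells, were left out, as a type needed 50 cells in each library. The scripts were tested on simulated counts. Doublets were marked with Scrublet (scanpy 1.11.5), which called 1.54% and 2.23% of barcodes, 31 and 41 of them nmSC, and were kept. Mouse and rat genes were joined by symbol.

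Named genes are Apod, Kcnk2 and Sox9, the 12 furthest above and below fibro and above the next type with at least 50 CPM, up to 6 called members per direction and up to 4 others of each of 34 lists by CPM, and the 10 genes with the largest Fano factor. Exceptions are marked, and a few further list members appear only to account for a count. The text describes a part of them, and listed genes without a matching symbol were not analysed here. Some genes called are not reported here. Alternatives were a pseudocount of 1 CPM, no count filter, TMM factors (edgeR 4.0.16, R 4.3.3), each cell weighted equally, thinning to 1000 UMIs, removal of doublets or of barcodes with at least 2 leukocyte or endothelial markers, and leaving out each library. Removal of the 5 cells with myelin genes was added after seeing the data.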

Additional observations from a re-analysis of the deposited data

How the results depend on the processing

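With a pseudocount of 1 CPM, 641 genes were called higher and 556 lower than in fibro, against 380 and 330. With TMM factors the counts were 330 and 397, which moves the split towards lower calls. The other alternatives on both libraries gave 366 to 388 genes higher and 329 to 342 lower, and 118 of the 147 genes that led all types were called again with thinned cells. One library alone gave 426 to 468 genes higher, 371 to 400 lower and 168 to 183 highest of all types, since 1 condition fewer had to be met. The nmSC share was 31.3% of all deposited barcodes and 31.7% of annotated cells, 31.6% to 31.8% by library. The given markers summed to 39824 to 44944 CPM and the Schwann list to 111 to 127 CPM with 1 library left out. No called ratio of a named gene reversed its direction under these alternatives. Of the named genes called, 6 lost their call with TMM factors, 5 with equal cell weights and 9 with thinned cells. No paired analysis was possible because no test between the cell types was made, so there was no fit to hold a block; each ratio was taken within a library. Only 2 libraries, not said to be of separate animals, limit what the spread can show, and free RNA limits any statement on genes near the level of T cells.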
